A study of Homo sapiens with 12 samples.

Results

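The genes described here encode 6 chemokines that attract lymphocytes and monocytes: CXCL10, CXCL11, CX3CL1, CXCL16, CCL2 and CCL5. They were chosen by gene name from the probe table, in which each had 1 probe, and are 6 of the 18136 genes on the array. All 6 passed a detection filter (detection p under 0.05 on at least 3 of 12 arrays), as did 12275 genes in all.

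RNA came from MDA-MB-231, an established human cell line derived from a triple-negative breast cancer. Cells had been transfected with an siRNA against EZH2, RELA or RELB (siEZH2, siRelA, siRelB) or with a negative control siRNA (siNC). For each siRNA, 1 array held cells given 10 ng/ml TNFalpha for 4 h (TNF) and the others held cells without it (CTRL). The CTRL groups had 3 arrays with siEZH2, 1 with siRelA, 1 with siRelB and 3 with siNC, which makes 12 arrays in all. EZH2 is the histone methyltransferase of Polycomb repressive complex 2, and RELA and RELB are NF-kB transcription factor subunits. Every group is the same cell line under a transient knockdown, and the sources used here do not say how many siRNAs were used per gene or whether replicates were separate cultures. P-values therefore cover only the variation among these arrays, part of which may be technical.

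Chemokines are small secreted proteins that guide leukocytes along a gradient through receptors coupled to G proteins. CXCL10 and CXCL11 bind CXCR3 on activated T cells and natural killer cells and are classic targets of interferon and NF-kB. CX3CL1 and CXCL16 are made as membrane-bound proteins that metalloproteases such as ADAM10 and ADAM17 can release. CCL2 recruits monocytes through CCR2, and CCL5 recruits T cells and monocytes through several CC chemokine receptors. Tumour cells can produce all of these, and NF-kB drives several of them after TNFalpha.

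Each siRNA lowered its target. EZH2 was 6.83-fold lower with siEZH2 than with siNC without TNF (log2 change -2.77 ± 0.36 SE, limma adjusted p = 0.00536). The call of EZH2 was made in 24 of 26 alternatives. It was not made in the authors' processed values or with replicates 1 and 2 alone (limma adjusted p up to 0.167). RELA was at least 3.52-fold lower with siRelA (limma adjusted p = 0.00164), and RELB was 5.55-fold lower with siRelB and 4.50-fold lower with siRelA. RELB was above background on 1 of the 2 siRelB arrays, and its limma adjusted p with siRelB was 0.059 in the authors' processed values. Without the siRelA CTRL array the limma adjusted p of RELA was 0.0594. The arrays detected 12337 to 12908 probes each, and their background signal was 58.1 to 101.5. The replicate 2 arrays had the highest background, 99.7 with siEZH2 and 101.5 with siNC, and no other array was above 80.1. Of the markers of the line, VIM, CD44, CAV1 and AXL were detected on all 12 arrays, FN1 on 4 and SPARC on none. The luminal markers ESR1, PGR and FOXA1 and the blood cell markers CD3D, CD3E, MS4A1 and ITGAM were detected on no array. Other luminal markers were detected: ERBB2, EPCAM, KRT8, KRT18 and KRT19 on all 12 arrays, GATA3 on 9 and CDH1 on 7. Among the other blood cell markers, CD68 was detected on all 12 arrays, PTPRC and CSF1R on 7, and CD14 and LYZ on 5. The authors' processed values hold the arrays in 2 sets, replicates 1 and 2 of the siEZH2 and siNC CTRL groups (4 arrays) and the other 8 arrays.

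The chemokines fell into 3 patterns, shown in the plot of all arrays. CXCL10, CXCL11 and CX3CL1 were highest on the 4 siNC arrays and near background with each of the 3 other siRNAs. CXCL16 was highest on the siEZH2 arrays and lowest with siRelA and siRelB. CCL2 and CCL5 were set apart by the replicate 2 arrays more than by siRNA, and CCL2 differed most with TNF. Values are normalized log2 intensities unless called signals, which are the deposited intensities. In such RNA, fewer producing cells and less RNA per cell cannot be told apart.

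**Figure D1:**
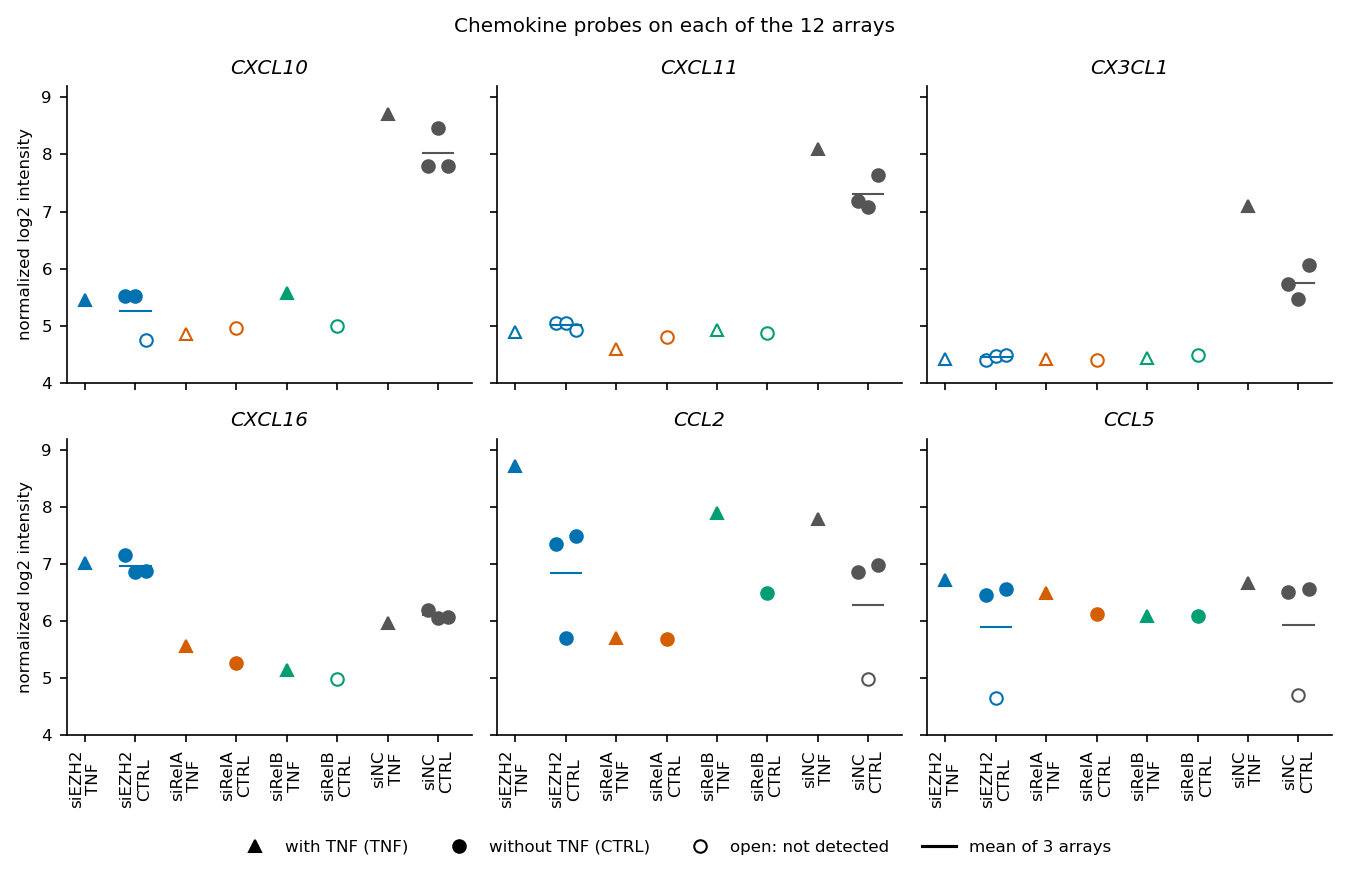
Normalized log2 intensity (y axis) of 6 chemokine probes on the 12 arrays by siRNA and TNF state (x axis). Triangles are TNF arrays, circles CTRL arrays, open symbols undetected values and lines means of 3 arrays. CXCL11 and CX3CL1 are detected on the 4 siNC arrays alone, and CXCL16 is highest with siEZH2.

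CXCL10 and CXCL11 lie side by side on chromosome 4 (GRCh38.p14), CXCL10 at chr4:76021118-76023497 and CXCL11 at chr4:76033682-76036070, 10184 bases apart and both on the minus strand. The 250 bases before each annotated start are shown for CXCL10 and CXCL11 because promoter sequences were at hand for these genes alone. None was at hand for the other 4 chemokine genes, so their motif matches were not examined. CX3CL1, among those 4, also fell with all 3 knockdowns, as CXCL10 and CXCL11 did. The bases shown are RefSeq promoter sequences, 5′ to 3′ on the gene's strand, from chr4:76023498-76023747 for CXCL10 and chr4:76036071-76036320 for CXCL11. Capitals mark matches to the motifs described below.
CXCL10: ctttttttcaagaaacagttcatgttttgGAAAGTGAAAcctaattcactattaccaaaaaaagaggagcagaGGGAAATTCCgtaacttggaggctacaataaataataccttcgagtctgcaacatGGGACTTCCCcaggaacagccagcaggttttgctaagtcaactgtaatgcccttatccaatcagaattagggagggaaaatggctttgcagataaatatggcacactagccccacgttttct
CXCL11: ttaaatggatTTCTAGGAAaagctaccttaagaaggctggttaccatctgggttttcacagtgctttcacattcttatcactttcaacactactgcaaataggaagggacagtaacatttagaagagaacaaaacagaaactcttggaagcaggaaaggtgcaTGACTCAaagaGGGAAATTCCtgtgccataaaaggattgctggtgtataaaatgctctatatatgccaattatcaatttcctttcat
The motifs searched on both strands were the 10-letter NF-kB consensus, an interferon response pattern (GAAA, any 2 bases, GAAA), the STAT pattern TTCNNNGAA and the AP-1 pattern TGANTCA. No matches overlapped. CXCL10 had an NF-kB match, GGGAAATTCC, from 177 to 168 bases before the start and another, GGGACTTCCC, from 122 to 113 bases before it. CXCL11 had 1 NF-kB match, GGGAAATTCC, with the same letters as the first of CXCL10, from 76 to 67 bases before its start. CXCL10 also held GAAAGTGAAA, a match to the interferon pattern. CXCL11 held TTCTAGGAA, a STAT match, and TGACTCA, an AP-1 match. Among 35091 promoters of the same window, 5.2% held the NF-kB consensus, 3.02% the interferon pattern, 6.57% the STAT pattern and 6.57% the AP-1 pattern. A match is a description of letters and not a measured site. The other 4 chemokine genes are CX3CL1 on chromosome 16 (chr16:57372490-57385044) and CXCL16 (chr17:4733533-4739928), CCL2 (chr17:34255285-34257203) and CCL5 (chr17:35871491-35880360) on chromosome 17.

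Without TNF, EZH2 knockdown lowered the CXCR3 ligands and CX3CL1 and raised CXCL16. Of the 6 chemokines, 3 fell and 1 rose with siEZH2 against siNC (3 arrays each, adjusted p under 0.05), while 6.92% of all tested genes fell and 7.87% rose (14.8% in either direction). CXCL11 and CX3CL1 were detected on the 4 siNC arrays alone and so passed the filter only through the group where they were high, and the count is a description only. The median log2 change of the 6 chemokines was -0.32 with undetected members at their bound and -0.67 as fitted. The median over all genes tested was -0.01, as fitted and without bounds. Both medians of the 6 are a description only.

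CXCL10 had values of 5.52, 5.52 and 4.75 on the siEZH2 arrays of replicates 1, 2 and 3, against 7.80, 8.46 and 7.79 on the siNC arrays. The deposited signals were 95.4, 129.9 and 85.0 with siEZH2, against 259.1, 537.1 and 265.2 with siNC. Every siEZH2 array lay below every siNC array, and replicate 3 of siEZH2 was not above background. CXCL10 was 6.75-fold lower with siEZH2 (log2 change -2.76 ± 0.30 SE, limma adjusted p = 0.00362). Within the 4-array set CXCL10 differed by -2.61 ± 0.35 (limma adjusted p = 0.158, 2 arrays against 2), and within the 8-array set, over both TNF states, by -3.15 ± 0.22 (limma adjusted p = 7.94e-05).

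CXCL11 had values of 5.05, 5.05 and 4.92 with siEZH2, against 7.19, 7.08 and 7.63 with siNC. No siEZH2 array was above background and every siNC array was, so the groups did not overlap. CXCL11 was at least 4.46-fold lower with siEZH2 (limma adjusted p = 0.00271). A fold written as "at least" sets the detected group against the lowest detected level of each array, since an undetected probe gives a limit only. Such a limit holds for the normalized values used here, and the p-value beside it comes from the fitted change. In the authors' processed values the log2 change of CXCL11 was -1.23, a smaller fall than this limit.

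CX3CL1, also called fractalkine, had values of 4.41, 4.47 and 4.49 with siEZH2, against 5.73, 5.46 and 6.05 with siNC. Its signals were 52.8, 90.3 and 73.5 with siEZH2, against 103.8, 130.7 and 114.4 with siNC. No siEZH2 array was above background, and the siNC arrays were only modestly so. CX3CL1 was at least 1.52-fold lower with siEZH2 (limma adjusted p = 0.00833), and its mean level was at the 1.46th percentile of the genes tested. In the authors' processed values the calls of CXCL11 (limma adjusted p = 0.0842) and CX3CL1 (limma adjusted p = 0.206) were not made. Within the 4-array set CXCL11 was at least 3.95-fold lower with siEZH2 (limma adjusted p = 0.158) and CX3CL1 at least 1.36-fold lower (limma adjusted p = 0.199). Within the 8-array set, over both TNF states, the bounds were 6.50-fold for CXCL11 and 2.65-fold for CX3CL1.

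CXCL16, the ligand of CXCR6, had values of 7.17, 6.87 and 6.88 with siEZH2, against 6.19, 6.05 and 6.07 with siNC. Its signals were 187.3, 223.7 and 173.4 with siEZH2, against 121.1, 161.2 and 115.2 with siNC. Every siEZH2 array lay above every siNC array, and all 6 were above background. CXCL16 was 1.82-fold higher with siEZH2 (log2 change 0.87 ± 0.17 SE, limma adjusted p = 0.0187). By replicate number the differences of CXCL16 were 0.98, 0.82 and 0.80, as the plot of joined arrays shows. The call of CXCL16 rested on few arrays: the limma adjusted p was 0.0642 without siNC replicate 1, 0.0926 without siNC replicate 3, 0.0792 without siEZH2 replicate 1 and 0.0639 without siEZH2 replicate 3. It was 0.186 in the authors' processed values, where the log2 change was 0.59. CXCL16 differed by 0.90 ± 0.30 within the 4-array set (limma adjusted p = 0.281) and by 0.93 ± 0.11 within the 8-array set over both TNF states.

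**Figure D2:**
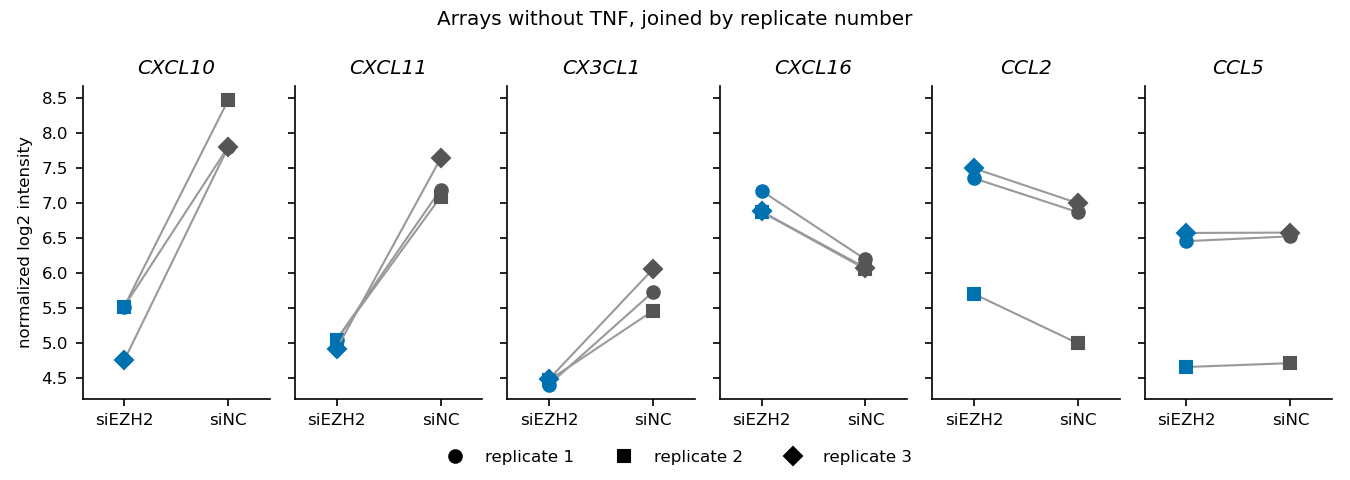
Normalized log2 intensity (y axis) of the 6 chemokines on the 3 siEZH2 CTRL and 3 siNC CTRL arrays (x axis), with lines joining arrays of the same replicate number. All 3 lines of CXCL10, CXCL11 and CX3CL1 are lower with siEZH2, all 3 of CXCL16 and CCL2 are higher, and both replicate 2 arrays are low for CCL2 and CCL5.

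CCL2 had values of 7.35, 5.70 and 7.49 with siEZH2, against 6.87, 4.99 and 6.99 with siNC. Replicate 2 was the lowest array of both groups, and the ranges overlapped. CCL2 differed by 0.56 ± 0.66 (SE, limma adjusted p = 0.689), with a 95% interval of -1.0 to 2.12. The numbers were taken to pair the arrays, and by number CCL2 was higher with siEZH2 in 3 of 3 pairs, by 0.48, 0.71 and 0.50. With replicate number as a block the difference of CCL2 was 0.56 ± 0.12 (limma adjusted p = 0.00626), and without both replicate 2 arrays it was 0.49 ± 0.14 (limma adjusted p = 0.0459).

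CCL5 had values of 6.45, 4.66 and 6.57 with siEZH2, against 6.52, 4.71 and 6.57 with siNC. It was not above background on either replicate 2 array and was alike on the others. The difference of CCL5 was -0.04 ± 0.67 (SE, limma adjusted p = 0.980), with a 95% interval of -1.61 to 1.53. By replicate number the CCL5 differences were -0.07, -0.06 and -0.01.

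RELA knockdown lowered CXCL10, CXCL11 and CX3CL1 over both TNF states. With siRelA against siNC (2 arrays against 4), 3 of 6 chemokines fell and 0 rose, while 1.34% of all tested genes fell and 0.603% rose (1.94% in either direction). CXCL11 and CX3CL1 passed the filter only through the siNC arrays, so this count too is a description only. The median log2 change of the 6 was -1.09 with undetected members at their bound and -1.53 as fitted, again a description only. The fitted median over all genes tested was 0.03. This comparison and those of siEZH2 and siRelB share the siNC arrays.

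CXCL10 had values of 4.85 with TNF and 4.95 without it on the siRelA arrays, against 8.70 with TNF and 7.80, 8.46 and 7.79 without it on the siNC arrays. Its signals were 69.5 and 71.1 on the siRelA arrays. Both siRelA arrays were at background, and CXCL10 was at least 7.99-fold lower (limma adjusted p = 0.000579). CXCL11 had values of 4.58 with TNF and 4.81 without it on the siRelA arrays, against 8.10 with TNF and 7.19, 7.08 and 7.63 without it on the siNC arrays. It too was undetected with siRelA, and was at least 4.96-fold lower (limma adjusted p = 0.000579). CX3CL1 had values of 4.41 with TNF and 4.40 without it on the siRelA arrays, against 7.09 with TNF and 5.73, 5.46 and 6.05 without it on the siNC arrays. CX3CL1 was at least 1.86-fold lower (limma adjusted p = 0.0183). Its call was not made with a background offset of 50 (limma adjusted p = 0.0512), without the siRelA CTRL array (0.167) or without the siRelA TNF array (0.286). In the authors' processed values the limma adjusted p was 0.118 for CXCL11 and 0.188 for CX3CL1. The log2 change of CXCL11 there was -1.59, a smaller fall than its limit. The smallest log2 change of CXCL10 among the alternatives was -1.97, also short of its limit.

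CXCL16 had values of 5.56 with TNF and 5.27 without it on the siRelA arrays, against 5.97 with TNF and 6.19, 6.05 and 6.07 without it on the siNC arrays. The groups did not overlap. The log2 difference of CXCL16 was -0.67 ± 0.15 (SE, limma adjusted p = 0.0552), which missed the threshold. CXCL16 passed in 5 of 23 alternatives, among them leaving out both replicate 2 arrays (limma adjusted p = 0.0132) and the 8-array set (0.0154).

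CCL2 had values of 5.71 with TNF and 5.69 without it on the siRelA arrays, against 7.79 with TNF and 6.87, 4.99 and 6.99 without it on the siNC arrays. Only siNC replicate 2 lay below the siRelA arrays. The log2 difference of CCL2 was -1.28 ± 0.66 (SE, limma adjusted p = 0.513). Without both replicate 2 arrays it was -1.67 ± 0.26 (limma adjusted p = 0.00422), and within the 8-array set -1.69 ± 0.30 (limma adjusted p = 0.0142). CCL5 had values of 6.49 with TNF and 6.13 without it on the siRelA arrays, against 6.67 with TNF and 6.52, 4.71 and 6.57 without it on the siNC arrays. The ranges overlapped and the log2 difference was 0.06 ± 0.61 (SE, limma adjusted p = 0.986). Within the 8-array set the difference of CCL5 had the other sign, -0.31 ± 0.11 (limma adjusted p = 0.0918).

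**Figure D3:**
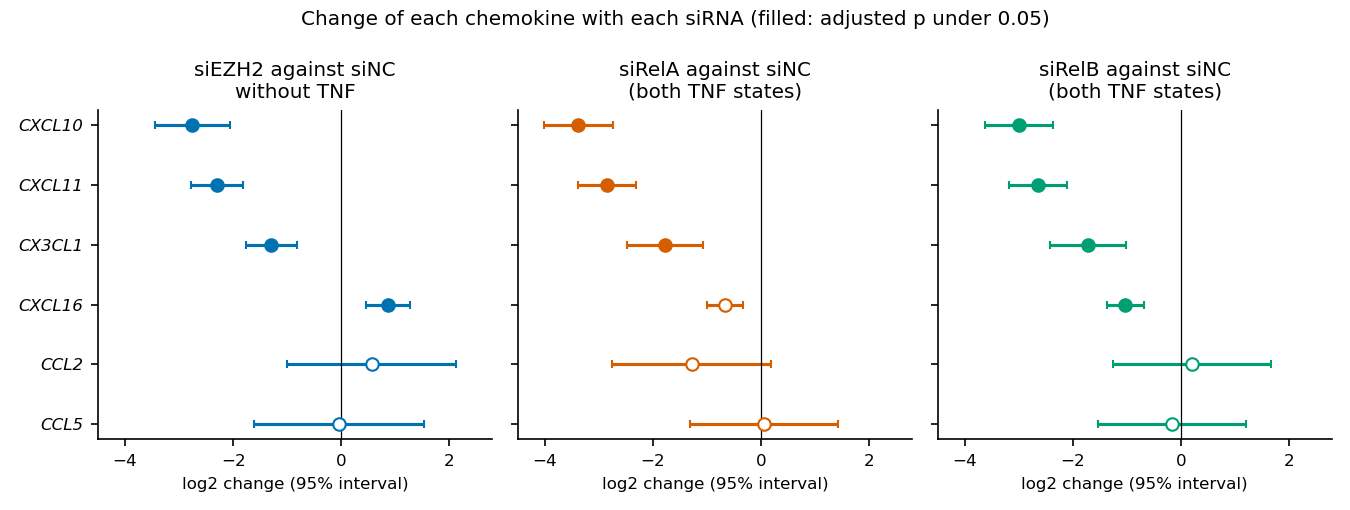
Fitted log2 change against siNC (x axis) of each chemokine (y axis) with siEZH2, siRelA and siRelB, with 95% intervals; filled points have an adjusted p under 0.05. CXCL10, CXCL11 and CX3CL1 lie below 0 in all 3 panels. Values of CXCL11 and CX3CL1, and of CXCL10 with siRelA, are fitted against background and are no bounds. CXCL16 lies above 0 with siEZH2 and below 0 with siRelB.

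RELB knockdown lowered 4 of the 6 chemokines, CXCL10, CXCL11, CX3CL1 and CXCL16, and raised none. Among all genes tested 0.79% fell and 0.383% rose (1.17% in either direction) with siRelB against siNC (2 arrays against 4). Here too CXCL11 and CX3CL1 passed the filter only through the siNC arrays, and the count is a description only. The median log2 change of the 6 was -0.97 with undetected members at their bound and -1.37 as fitted, again a description only. The fitted median over all genes tested was 0.04.

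CXCL10 had values of 5.57 with TNF and 5.00 without it on the siRelB arrays, and the siNC arrays lay between 7.79 and 8.70. Only the TNF array of siRelB was above background. CXCL10 was 7.96-fold lower with siRelB (log2 change -2.99 ± 0.29 SE, limma adjusted p = 0.000696), a size that rests in part on the undetected array. CXCL11 had values of 4.93 and 4.88 with siRelB, and the siNC arrays lay between 7.08 and 8.10. It was undetected with siRelB and at least 5.02-fold lower (limma adjusted p = 0.000608). CX3CL1 had values of 4.44 and 4.48 with siRelB, and the siNC arrays lay between 5.46 and 7.09. It was at least 1.88-fold lower (limma adjusted p = 0.0328). This call of CX3CL1 was lost in 10 of 22 alternatives, among them leaving out replicate 1 or 3 of either CTRL group of 3, or any of the 4 siRelA and siRelB arrays, with an adjusted p of up to 0.473 without the siRelB TNF array. In the authors' processed values the limma adjusted p was 0.203 for CXCL11 and 0.274 for CX3CL1. The log2 change of CXCL11 there was -1.47, a smaller fall than its limit.

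CXCL16 had values of 5.15 with TNF and 4.98 without it on the siRelB arrays, against 5.97 with TNF and 6.19, 6.05 and 6.07 without it on the siNC arrays. Its signals were 74.8 and 71.7 with siRelB, against 110.9, 121.1, 161.2 and 115.2 with siNC. The groups did not overlap, and the siRelB CTRL array was not above background. CXCL16 was 2.03-fold lower with siRelB (log2 change -1.02 ± 0.15 SE, limma adjusted p = 0.0124). The call was not made without the siRelB CTRL array (limma adjusted p = 0.395), without the siRelB TNF array (0.166) or in the authors' processed values (0.577). Within the 8-array set CXCL16 differed by -0.95 ± 0.11 (limma adjusted p = 0.00421).

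CCL2 had values of 7.90 with TNF and 6.49 without it on the siRelB arrays, and the siNC arrays lay between 4.99 and 7.79. The ranges overlapped, and CCL2 differed by 0.21 ± 0.66 (SE, limma adjusted p = 0.960, 95% interval -1.26 to 1.68). CCL5 had values of 6.09 and 6.09 with siRelB, and the siNC arrays lay between 4.71 and 6.67. CCL5 differed by -0.16 ± 0.61 (SE, limma adjusted p = 0.969). Without both replicate 2 arrays the difference of CCL5 was -0.52 ± 0.10 (limma adjusted p = 0.0144), and within the 8-array set -0.53 ± 0.11 (limma adjusted p = 0.0225).

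The knockdowns were also set against each other. None of the 6 chemokines was called between siRelA and siRelB (2 arrays each), where 0.171% of all genes tested were (0.057% higher and 0.114% lower), and 687 genes had an unadjusted limma p under 0.05. CXCL10, above background on 1 of these 4 arrays, differed by -0.38 ± 0.33 (95% interval -1.11 to 0.34) and CXCL16 by 0.35 ± 0.17 (95% interval -0.03 to 0.73). CCL2 differed by -1.49 ± 0.75 (SE, limma adjusted p = 1, 95% interval -3.16 to 0.17). Without both replicate 2 arrays the limma adjusted p of CCL2 was 0.0222, and within the 8-array set it was 0.0366. RELB itself was 4.50-fold lower with siRelA against siNC, so the siRelA arrays were low in both subunits.

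CXCL16 separated siEZH2 from both NF-kB knockdowns. Setting siEZH2 against siRelA and siRelB was added after the values were seen. Against siRelA 1 of 6 chemokines rose (13.3% of all genes tested rose, 12.6% fell and 26% changed), and against siRelB 1 of 6 rose (12% rose, 12.1% fell and 24.1% changed). CXCL16 had values of 7.02 with TNF and 7.17, 6.87 and 6.88 without it on the siEZH2 arrays, against 5.56 and 5.27 with siRelA and 5.15 and 4.98 with siRelB. Every siEZH2 array lay above every siRelA and siRelB array. CXCL16 was 3.0-fold higher than with siRelA (log2 change 1.59 ± 0.15 SE, limma adjusted p = 8.56e-05). It was 3.83-fold higher than with siRelB (log2 change 1.94 ± 0.15 SE, limma adjusted p = 2.85e-05). The size of this fold rests in part on the siRelB CTRL array, where CXCL16 was not above background. Both calls of CXCL16 were made in all 23 alternatives. CCL2 was next against siRelA, with a log2 difference of 1.94 ± 0.66 (SE, limma adjusted p = 0.0543). It passed in 10 of 23 alternatives, with a limma adjusted p of 0.000122 without both replicate 2 arrays. Among the 10 were no background correction, median scaling, the authors' processed values and the processing set as a term. Against siRelB, CCL2 differed by 0.45 ± 0.66 (SE, limma adjusted p = 0.692) and CCL5 by 0.14 ± 0.61 (SE, limma adjusted p = 0.901). Without both replicate 2 arrays, a choice made after seeing the data, CCL2 was higher by 0.81 ± 0.26 (limma adjusted p = 0.0307). CCL5 was then higher by 0.52 ± 0.10 (limma adjusted p = 0.00299). CCL2 and CCL5 were each called against siRelB in 2 of 23 alternatives, and CCL5 had the other sign in 3. CXCL10 differed by 0.50 ± 0.29 (SE) from siRelA, where it was at background, and by 0.11 ± 0.29 from siRelB, and neither passed the test.

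TNF was tested over all 4 siRNAs, and no chemokine was called. No gene on the array was called either (limma, 0% of 12275, with 219 genes at an unadjusted p under 0.05), and without both replicate 2 arrays 2 genes were. CCL2 had the widest difference of the 6, 1.30 ± 0.47 (SE, limma adjusted p = 0.994, unadjusted 0.0203). The other 5 differed by 0.07 to 0.54 on the log2 scale.

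Each siRNA had 1 TNF array, and the plot of TNF differences shows the values. CCL2 had signals of 440.2 with TNF and 204.8, 137.6 and 229.8 without it with siEZH2. Its signals were 96.3 with TNF and 94.8 without it with siRelA, and 265.2 and 134.3 with siRelB. With siNC they were 258.5 with TNF and 161.6, 116.0 and 173.5 without it. The TNF array was above every CTRL array of its siRNA in each case, and with siRelA the gap was the narrowest. The normalized ratio of TNF to CTRL for CCL2 was 3.68 with siEZH2, 1.01 with siRelA, 2.66 with siRelB and 2.84 with siNC. Without the replicate 2 arrays it was 2.47 with siEZH2 and 1.82 with siNC. The siRelA by TNF interaction of CCL2 was -1.48 ± 1.48 (SE, limma adjusted p = 1.0), so a difference in response was not shown.

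CX3CL1 had a signal of 179.6 on the siNC TNF array, against 103.8, 130.7 and 114.4 on the siNC CTRL arrays. The TNF array was the highest of the 4, with a ratio of 2.54 (log2 difference 1.35 ± 0.28 SE, limma adjusted p = 1.0, unadjusted 0.00199). Within siNC no gene passed the limma test (0% called, 59 at an unadjusted p under 0.05). With each of the other siRNAs CX3CL1 was at background with and without TNF. The interactions of CX3CL1 with TNF were -1.38 ± 0.40 for siEZH2, -1.33 ± 0.45 for siRelA and -1.39 ± 0.45 for siRelB (SE). Since CX3CL1 was undetected with these siRNAs, each value restates the siNC difference against background. None passed (limma adjusted p = 1.0, unadjusted 0.0106, 0.0207 and 0.0170), and 0% of genes were called in each interaction, with 22, 17 and 15 genes at an unadjusted p under 0.05. The siNC TNF array was read from a mean of 23.6 beads per probe, against 40.8 to 43.1 on the others, and the part of that in the result was not tested.

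CXCL10 and CXCL11 had siNC ratios of TNF to CTRL of 1.61 and 1.74, and their siNC TNF arrays (8.70 and 8.10) were the highest of all 12. With TNF, CXCL10 was at 5.45 with siEZH2, 4.85 with siRelA and 5.57 with siRelB. CXCL11 was at 4.90, 4.58 and 4.93 and was undetected with each of them. CXCL16 differed little with TNF, by 0.05 with siEZH2, 0.30 with siRelA, 0.17 with siRelB and -0.14 with siNC on the log2 scale. CCL5 had TNF minus CTRL values of 0.84 with siEZH2, 0.36 with siRelA, -0.00 with siRelB and 0.73 with siNC. In the groups of siEZH2 and siNC, both replicate 2 arrays lower the CTRL mean of CCL5.

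**Figure D4:**
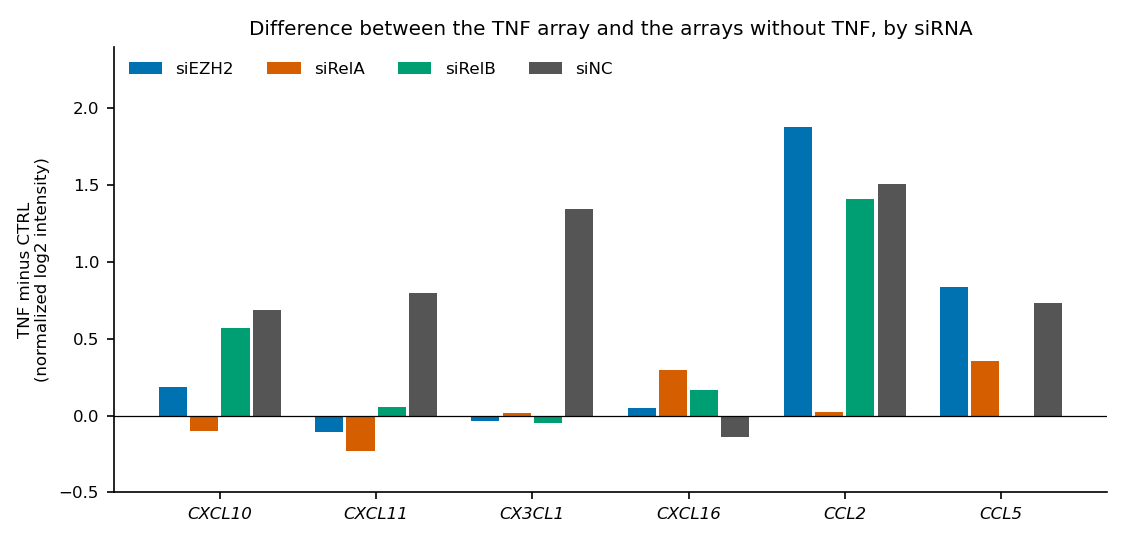
TNF minus CTRL difference (y axis, normalized log2 intensity) of each chemokine (x axis) with each siRNA; bars set 1 TNF array against the mean of the CTRL arrays and carry no error. CCL2 is close to 0 with siRelA and above 1 with the other siRNAs (0.86 with siNC without replicate 2), and CX3CL1 is above 1 with siNC alone.

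Across the 12 arrays CXCL10, CXCL11 and CX3CL1 varied together, with Pearson r of 0.97 between CXCL10 and CXCL11, 0.91 between CXCL10 and CX3CL1 and 0.96 between CXCL11 and CX3CL1. These values describe arrays that fall into 4 siNC arrays and 8 others, and share their siRNA groups. CCL2 and CCL5 had an r of 0.69, which spans the low replicate 2 arrays. CXCL16 had an r of 0.30 with CCL2 and between -0.04 and 0.02 with the other 4. The genes most like CXCL10 over all 12 arrays were HCP5, MARS and ALOX5AP (each with r = 0.96). CXCL11 was most like PSMB9 (r = 0.97), an immunoproteasome subunit, then NOX5 and CSF3 (both 0.96). CX3CL1 was most like PSMB9 and NOX5 (both 0.95) and LTB (0.93), which encodes lymphotoxin beta. CCL2 was most like CEBPD (0.97), a transcription factor, NRIP1 and EAF1 (both 0.96). CCL5 was most like PLCL2, COL8A2 and CDH7 (each 0.98), and CXCL16 like IDUA and SCG5 (both 0.98) and ANKRD33 (0.97).

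Receptors for these ligands were mostly silent in the line. Of 10 receptor genes, 9 were on the array and 6 were detected on no array: CXCR3, ACKR3, CCR2, CXCR6, ACKR1 and CCRL2. CX3CR1, the receptor of CX3CL1, was detected on 9 arrays, CCR1 on 1 and CCR3 on 2. CX3CR1 alone passed the filter and was called in no comparison against siNC.

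A list of genes tied to the shedding or trimming of these chemokines included RHBDF1 and DPP4, which rose with EZH2 knockdown. The metalloproteases of the list, ADAM10 and ADAM17, were not called against siNC. All 6 of the list were tested against siNC, and 2 rose with siEZH2 and 0 with siRelA or siRelB, where 7.87%, 0.603% and 0.383% of all genes rose. RHBDF1, an inactive rhomboid that helps ADAM17 mature, had signals of 1759.7, 2044.7 and 1481.6 with siEZH2, against 536.7, 955.9 and 559.8 with siNC. The groups did not overlap, and RHBDF1 was 3.01-fold higher (log2 change 1.59 ± 0.19 SE, limma adjusted p = 0.00461). Set directly against siRelA over both TNF states, RHBDF1 was higher with siEZH2 by 1.52 ± 0.16 (limma adjusted p = 0.00015). DPP4, a peptidase that trims CXCL10 and CXCL11 at their amino end, had signals of 105.4, 217.0 and 105.7 with siEZH2, against 55.8, 108.9 and 53.3 with siNC. It was above background on each siEZH2 array and no siNC array, at least 1.80-fold higher (limma adjusted p = 0.0308). DPP4 was detected on no other siRNA's arrays, so it passed the filter only through the siEZH2 group. The signal of siNC replicate 2, an array of high background, lay within the siEZH2 range. The DPP4 call was made in 19 of 25 alternatives. It was not made with a background offset of 50, in the authors' processed values, in the 4-array set alone, or without siNC replicate 1, siNC replicate 3 or siEZH2 replicate 1. ADAM17 differed by 0.57 ± 0.18 (SE, limma adjusted p = 0.0775) and ADAM10 by 0.59 ± 0.52 (SE, limma adjusted p = 0.561).

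Of 19 regulators of interferon and IRF-STAT signalling, 15 were tested, and IFNB1, IFNL1, IRF5 and IRF8 were detected on no array. With siEZH2, 1 of the 15 fell (6.92% of all genes) and 0 rose. IRF7, an interferon-inducible transcription factor, was 1.66-fold lower with siEZH2 (log2 change -0.73 ± 0.16 SE, limma adjusted p = 0.0258), and its second probe differed by -0.11. With siRelA, 2 of the 15 fell (1.34% of all genes) and 0 rose. IRF1, a transcription factor that binds chemokine promoters, was 2.83-fold lower (log2 change -1.5 ± 0.30 SE, limma adjusted p = 0.0313) and IFNGR2, a chain of the interferon gamma receptor, 1.77-fold lower (limma adjusted p = 0.0242). With siRelB, 1 of the 15 fell (0.79% of all genes), IFNGR2, by 0.81 on the log2 scale (limma adjusted p = 0.0400). These calls depended on single arrays and on the processing. That of IRF7 was made in 18 of 26 alternatives and that of IRF1 in 13 of 23. That of IFNGR2 was made in 14 of 23 with siRelA and 10 of 23 with siRelB.

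Of 27 other lymphocyte, monocyte and tissue chemokines, 15 were detected on no array, among them CXCL9, the third CXCR3 ligand, and CCL3 and CCL4. Of the 7 that were tested, 0 were called against siNC, where 14.8%, 1.94% and 1.17% of all genes were called with siEZH2, siRelA and siRelB. Of 7 neutrophil chemokines and CCL20, 6 were tested, and 3 fell with siEZH2, 3 with siRelA and 0 with siRelB, where 6.92%, 1.34% and 0.79% of all genes fell. CXCL8, a neutrophil attractant, differed by -1.94 ± 0.36 with siEZH2 (limma adjusted p = 0.0149) and by -3.71 ± 0.44 with siRelA (limma adjusted p = 0.00206).

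With siEZH2 against siNC, the luminal marker EPCAM was lower (log2 change -1.41 ± 0.25 SE, limma adjusted p = 0.0119), as was CAV1, a marker of the line (-0.73 ± 0.18 SE, limma adjusted p = 0.0382), calls made in 23 of 26 and 18 of 26 alternatives. Among blood cell markers, CD14 was higher with siEZH2 (log2 change 1.25 ± 0.26 SE, limma adjusted p = 0.0203) and CSF1R lower (-0.80 ± 0.19 SE, limma adjusted p = 0.0322), calls made in 18 of 25 and 15 of 26 alternatives. The summed intensity of the 9 markers ran from 2143 to 3994 on the siEZH2 arrays and from 1957 to 3918 on the siNC arrays. Nearly all of that sum was CD68 (10.71 to 12.02 log2 over the 12 arrays), and the other 8 were at 6.71 log2 or less. Their part in the chemokine values was not tested.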

How the data were processed

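The authors deposited average signal intensities on a linear scale, not normalized, per the file headers, with a detection score and a bead count beside each. BeadStudio 3.2.7 is named in the submitters' processing notes. The authors also deposited processed log2 values. Against the signals of 3244 bright probes these equalled log2 signal less a centre per array and per probe, computed separately in 2 sets of arrays. Their tool was not given in the sources used here, and they served as an alternative.

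Background was corrected by the normal-exponential method of limma 3.58.1 in R 4.3.3 (offset 16), and signals were quantile normalized and put on a log2 scale. One minus the detection score was used as the detection p. Probes with p under 0.05 on at least 3 arrays were kept (13884 of 22184), and the brightest probe stood for a gene. Gene names were updated through a GRCh38.p14 table: 17828 probes had a current symbol, 3305 a synonym, 183 an ambiguous one and 868 no match.

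Tests used lmFit and eBayes over all genes and Benjamini-Hochberg adjusted p-values under 0.05. A model with 1 mean per group gave siEZH2 against siNC, TNF within siNC and the interactions. A model adding siRNA and TNF effects gave the other comparisons. A lone array was taken to vary like the replicated groups. Scripts were tested on simulated data. The number of arrays limits the precision. For folds written "at least", the undetected group took, on each array, its measured value or the lowest level among detected probes, whichever was higher. These folds compare plain means of arrays without the TNF term. The p-value beside each belongs to the fitted change and does not test the limit.

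Replicate numbers come from the sample titles. Same-numbered siEZH2 and siNC arrays deviated together (correlations of 0.757, 0.836 and 0.654), so the numbers were taken to pair the arrays. Replicates 1 and 3 across the groups also correlated (0.43 and 0.42), and unlike numbers with a replicate 2 array gave -0.77 to -0.60. Deviations were taken from group means of 3 arrays, so these values are not independent and the pairing is not certain. The main tests did not use it. Alternatives were other backgrounds, scalings, filters and probe rules, the authors' values, the processing sets, the replicate block and leaving out arrays. The named genes were the 6 chemokines, the siRNA targets, up to 3 called genes per list and comparison, and the 3 genes most correlated with each chemokine. ADAM10, ADAM17, the undetected genes and the markers given by detection alone were named after their values were seen. Some genes of the lists are not reported here. The chemokines and lists were chosen with earlier results of these data known.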

Additional observations from a re-analysis of the deposited data

How the results depend on the processing

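The limits of these results are few arrays and low signal: 6 groups had 1 array, and CXCL11 and CX3CL1 were above background on 4 arrays only. With siEZH2 against siNC, 4 chemokines were called. The count was 2 under a filter that asks for detection on 6 arrays, which drops CXCL11 and CX3CL1. It was 1 in the authors' processed values, 0 in the 4-array set, and 3 to 4 with 1 array left out. Over all genes, 1815 of 12275 were called, 1787 of 11321 under that strict filter, 950 in the authors' values and 0 in the 4-array set. With siRelA against siNC (3 called) the count was 1 under the strict filter and 1 in the authors' values. It was 5 in the 8-array set, 5 without both replicate 2 arrays, and 2 to 4 with 1 array left out. Over all genes 238 were called, and 247 under the strict filter and 101 in the authors' values. Calls over all genes rose to 2148 in the 8-array set and 1520 without both replicate 2 arrays. With siRelB against siNC (4 called) the count was 2 under the strict filter and 1 in the authors' values. It was 5 in the 8-array set, 5 without both replicate 2 arrays, and 2 to 4 with 1 array left out. Over all genes 144 were called, and 150 under the strict filter and 48 in the authors' values. Calls over all genes rose to 1935 in the 8-array set and 1349 without both replicate 2 arrays. Between siRelA and siRelB (0 called) the count was 1 in the 8-array set and 1 without both replicate 2 arrays. Calls over all genes went from 21 to 923 in the 8-array set and 592 without both replicate 2 arrays. With siEZH2 against siRelA (1 called) the count was 2 without background correction, with an offset of 50 and with median scaling. It was also 2 in the authors' values and with the set as a term. It was 4 in the authors' values with the set fitted too, 3 in the 8-array set, 3 without both replicate 2 arrays, and 1 to 2 with 1 array left out. Over all genes 3187 were called, 3714 in the authors' values with the set fitted, 6701 in the 8-array set and 5930 without both replicate 2 arrays. With siEZH2 against siRelB (1 called) the count was 2 in the authors' values with the set fitted too, 3 in the 8-array set and 3 without both replicate 2 arrays. Over all genes 2964 were called, and 3737, 6583 and 5811 in the same order. Leaving out both replicate 2 arrays, and the 4-array set alone, were chosen after seeing the data. CCL5 between siEZH2 and siRelA differed by -0.07 and had the other sign in the 8-array set (0.34, limma adjusted p = 0.0337) and without both replicate 2 arrays (0.30, limma adjusted p = 0.0383). The replicate block called 5350 genes with siEZH2 against siNC, where 1815 were called without it, and among the 6 chemokines it changed the call of CCL2 alone (0.56 ± 0.12, limma adjusted p = 0.00626). No called change of CXCL10, CXCL11, CX3CL1 or CXCL16 against siNC had the other sign in an alternative. The cause of these shifts was not tested, other than for the filters and left-out arrays, which test fewer genes or arrays.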
